A study of Mus musculus with 10 samples.

Results

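The immunoglobulin heavy chain variable genes were followed here through every probe of the array whose target name starts with IGHV or IGH-V, in upper or lower case. This gave 61 probes of 45281, under 59 of the table's 30811 gene names, since IGH-VJ558 and IGH-VS107 have a pair of probes each. The cells were splenic B cells of C57BL/6 mice, stimulated for 5 h with LPS (10 µg/ml), PMA (50 ng/ml) and ionomycin (500 ng/ml, which the labels spell inomycin), and the IL-10+ and IL-10- subsets were separated with a regulatory B cell kit and FACS. The groups were IL-10+ B cells (5 arrays), IL-10- B cells (3 arrays, numbered 2, 3 and 5) and total B cells (2 arrays). All 3 groups share the strain, the organ and the labels' one stimulation text, which is also the only source for the treatment of total B cells. No label gives the age of the mice, or says that replicates came from separate mice or whether animals were pooled, so a p-value here reflects the spread among samples alone, and that spread may be technical.

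A heavy chain variable exon is assembled in each B cell precursor by joining one V, one D and one J segment, and a mature B cell transcribes mainly its single productive heavy chain. V segments are grouped into families by sequence similarity. In the mouse, family 1 (the old J558 family) is the largest, while families 11 and 12 are known from phosphatidylcholine-binding antibodies of B-1 cells and family 7 (S107) from antibodies to phosphorylcholine. The level of one V gene in a bulk sample therefore depends on how many cells use it and on how much heavy chain mRNA each holds, and these cannot be told apart here. Members of a family are close in sequence, so a probe may also read transcripts of its relatives, and each probe is reported under the name the file gives it, with no level compared between probes. Of the 59 names, IGH-V and IGH-VS107 are RefSeq synonyms (GRCm38.p6) of a single gene each, Ighv7-1 and Ighv7-3, and the other 57 matched no current entry. RefSeq lists 183 heavy chain variable entries on chromosome 12, of which 63 are pseudogenes. IGH-V carries no family number and is kept apart as unassigned.

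Il10 itself checked the sort. Its level averaged 13.18 ± 0.28 over the 5 IL-10+ arrays (SD), with 7.75 ± 0.19 over the 3 IL-10- arrays and 10.26 ± 0.53 over the 2 total B arrays. These and all levels below are background-corrected, quantile-normalized log2 intensities. IL-10+ arrays 1 to 3 and IL-10- arrays 2 and 3 lay on slide 1, and all other arrays, both total B arrays among them, on slide 2. Precision is limited by how few arrays there are. For the 35 probes detected, as defined next, each intensity averages 26 to 67 beads, with a bead standard error of 4.12% of the signal at the median and 10.8% at most. In the heavy chain variable probes, IL-10+ replicate 1 stood high and replicate 2 low among the IL-10+ arrays, as described below. Counts are given with and without each.

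A probe counted as detected on an array when its detection score was above 0.99, and as detected overall when this held on at least 2 arrays. By this rule 35 of the 61 probes were detected and 26 were not. The numbers detected per array were 39, 28, 32, 34 and 32 in IL-10+ cells (replicates 1 to 5), 21, 19 and 15 in IL-10- cells (replicates 2, 3 and 5), and 30 and 30 in total B cells. Every IL-10+ array and both total B arrays thus showed more of these genes than any IL-10- array. Over all 45281 probes the arrays differed far less, with 31.8% to 34.5% detected in IL-10+ cells, 30.7% to 31.6% in IL-10- cells and 31.8% to 33.1% in total B cells. On at least 1 array of the group, 40 members were detected in IL-10+ cells, 22 in IL-10- cells and 32 in total B cells. With 5, 3 and 2 arrays, the groups had unequal chances to detect a probe. This count was not taken over all probes.

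**Figure D1:**
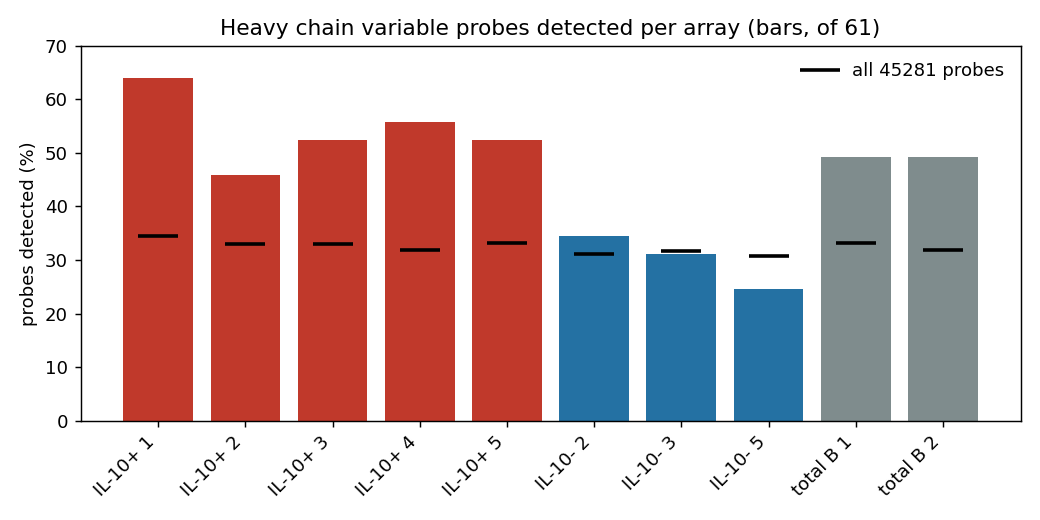
Share of the 61 heavy chain variable probes detected on each array (bars, percent), with the share of all probes on the same array as a black line. The bars lie between 45.9% and 63.9% on IL-10+ arrays, between 24.6% and 34.4% on IL-10- arrays and at 49.2% on both total B arrays.

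Among the 35 detected probes, 28 were detected on all IL-10+ arrays, 12 on all IL-10- arrays and 28 on both total B arrays. On no IL-10- array were 13 of them detected, and 7 of these 13 were detected on both total B arrays. The filter itself favours genes that are high in 1 group: 6 of the 35 passed only through IL-10+ arrays, having been detected on fewer than 2 of the other arrays. At the edge of the rule, IGH-V10 and IGHV1S20 were detected on exactly 2 arrays, and IGH-V15, IGHV1S16, IGHV1S33, IGHV1S49, IGHV2S1 and IGHV7S2 on exactly 1. The remaining 20 were detected on no array. All 26 undetected probes had raw intensities between 104.1 and 213.1 on every array, and they include the only probes of families 2, 6 and 13, both of family 15, 2 of 3 of family 5, 2 of 3 of family 7 and 17 of 40 of family 1.

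IL-10+ cells were set against IL-10- cells to ask whether the sorted subsets differ in heavy chain variable transcripts. They did, in one direction. Of the 35 detected probes, 29 were higher in IL-10+ cells and none was lower, by limma with Benjamini-Hochberg adjustment over all 16496 detected probes (adjusted p below 0.05). Among the probes detected on at least 2 arrays outside IL-10+ cells, also 29, 27 were called higher. The other called probes, IGHV10S1 and IGHV1S12, passed the filter only through IL-10+ arrays. The background was 8.72% of all detected probes called higher and 7.98% called lower, against 82.9% and 0 for the heavy chain variable probes. An unadjusted p below 0.05 was found for 33 of the 35, and for 5339 of all 16496 detected probes. The median difference was 2.42 log2, or 5.35-fold, against -0.02 over all detected probes. It was 2.41 with probes undetected on every IL-10- array set at their lower bound, where one is given. All 35 fitted differences were above 0, from 0.42 for IGHV1S20 to 5.59 for IGH-V11, under the main normalization. Every IL-10+ array exceeded every IL-10- array for 29 of the 35 probes, against 11.4% of all detected probes. With no filter, 28 of all 61 members were called higher, against 2.61% of the table.

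Arrays of the sorted groups that carry one replicate number were taken as pairs. With the replicate number as a block 21 probes were higher, against 5.15% of all detected probes: 20 of the 29, and IGH-VJ558 probe 240242 in addition. Of the 29, 9 lost the call under the block, with adjusted p of 0.0503 to 0.0768: IGHV1S12, IGHV1S30, IGHV1S34, IGHV1S59, IGHV1S114, IGHV1S133, IGHV1S135, IGHV5S18 and IGH-V. Within pairs, 32 of 35 probes were higher in the IL-10+ array in 3 of 3 pairs, with a median difference of 1.04, 1.70 and 3.22 log2 in pairs 2, 3 and 5. The difference was larger on slide 2 than on slide 1 for 32 of 35 probes, with medians of 3.36 and 1.88 log2. Neither the count within pairs nor that between slides was taken over all detected probes. Called higher were 11 probes within slide 1 (3.61% of all detected probes), where 3 arrays faced 2, and 31 within slide 2 (5.02%). On slide 2 only 1 IL-10- array, replicate 5, faced 2 IL-10+ arrays, so the spread came from the IL-10+ and total B arrays and the lone array, the lowest of the IL-10- arrays for 25 of the 35 probes, was assumed to vary like them. Without IL-10+ replicate 2, 31 probes were called higher (7.61% of all detected probes), and without IL-10+ replicate 1, 28 were (7.01%). With the slide as a block the count was also 31 (11% of all detected probes).

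**Figure D2:**
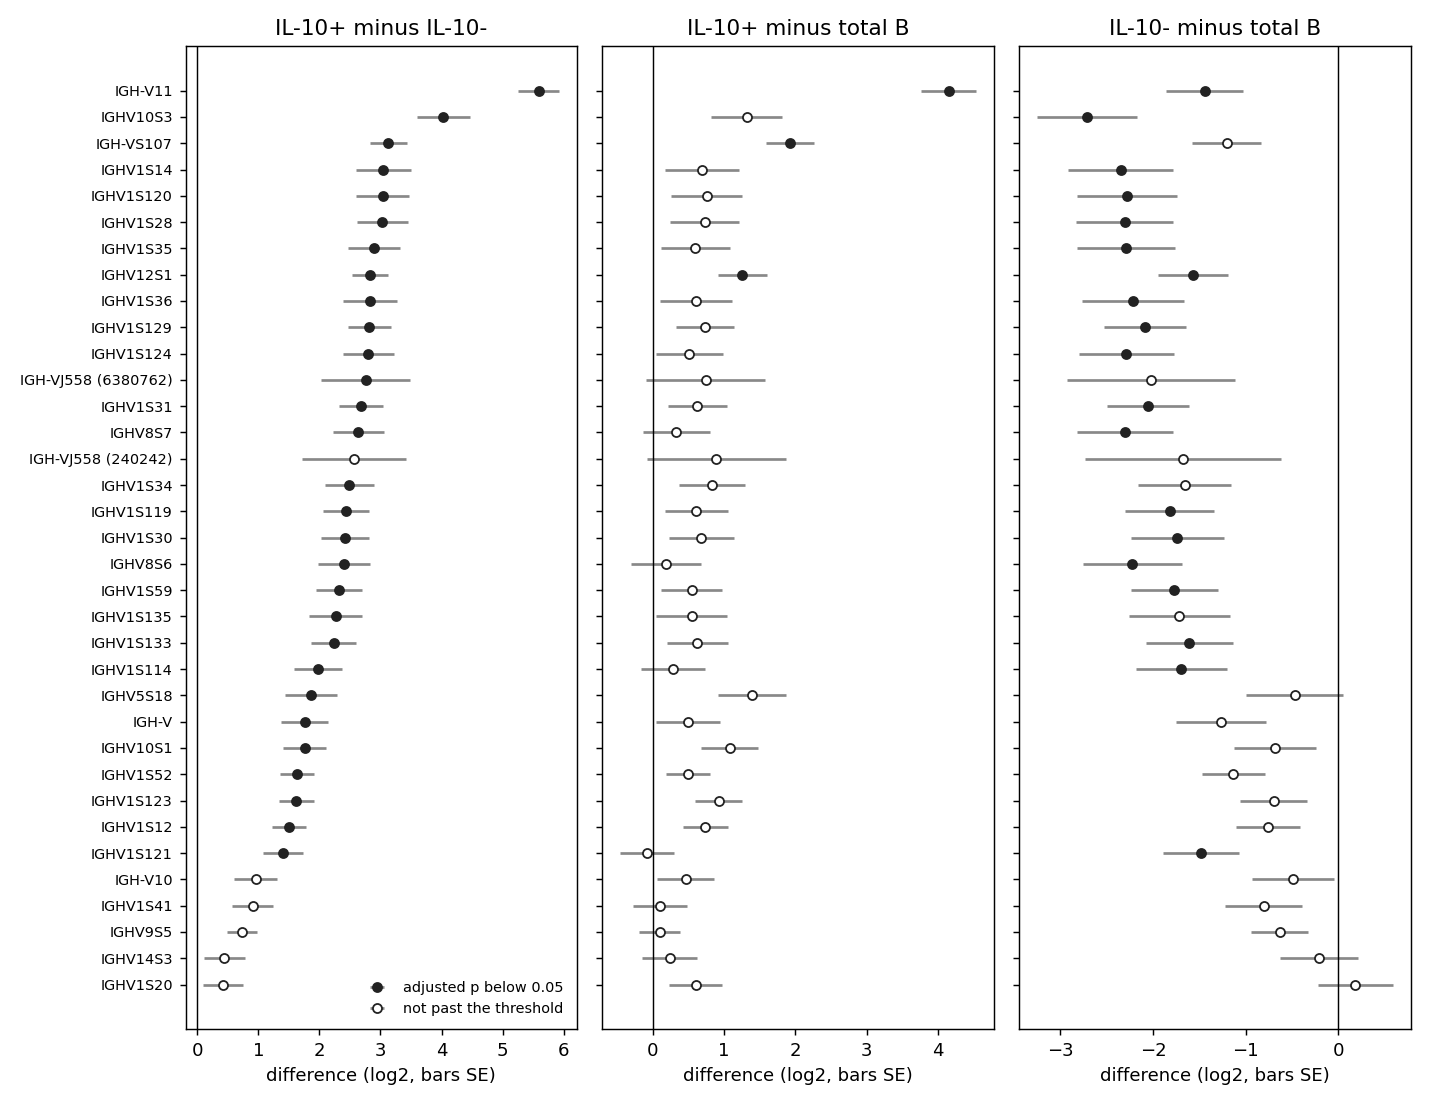
Differences of the 35 detected probes in log2 (points, with standard errors) for IL-10+ minus IL-10-, IL-10+ minus total B and IL-10- minus total B cells, ordered by the first; filled points have an adjusted p below 0.05. In the left panel all points lie above 0 and 29 are filled, in the middle panel 3 are filled, and in the right panel 19 are filled, all below 0.

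The largest difference belonged to IGH-V11, the only probe of family 11. Its raw intensities were 2274.2, 1655.1, 2539.4, 4752.5 and 4829.7 in IL-10+ cells, against 135.7, 169.3 and 155.0 in IL-10- cells and 255.7 and 226.8 in total B cells. On the normalized scale the levels were 10.76, 10.74, 11.28, 11.48 and 11.95 in IL-10+ cells, 5.76, 6.26 and 4.94 in IL-10- cells, and 6.88 and 7.31 in total B cells. The 3 groups did not overlap, and total B cells lay near the IL-10- end. IGH-V11 was higher in IL-10+ than in IL-10- cells by 5.59 ± 0.33 log2 (SE), which is 48.1-fold (limma, adjusted p = 1.67e-05). Of the 3 IL-10- arrays 1 did not detect it, and raising that array to the lowest signal it did detect gave a fold of 39.7 (this variant was added once the data had been seen). The difference was 4.92 log2 within slide 1 and 6.78 within slide 2, and it kept its call in each of 10 omissions of a single array.

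IGHV12S1, the only probe of family 12, was detected on all 10 arrays. Its levels were 9.89, 8.82, 9.62, 9.76 and 10.25 in IL-10+ cells, 7.16, 7.01 and 6.36 in IL-10- cells, and 8.17 and 8.65 in total B cells. As for IGH-V11, no group overlapped another. IL-10+ exceeded IL-10- cells by 2.83 ± 0.30 log2 (SE), which is 7.09-fold (limma, adjusted p = 0.00027), and by 2.36 within slide 1 and 3.65 within slide 2.

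For family 7, probe 3120301 of IGH-VS107 had levels of 8.67, 7.33, 7.93, 8.34 and 8.62 in IL-10+ cells, 5.00, 5.19 and 4.95 in IL-10- cells, and 6.64 and 5.86 in total B cells. It was not detected on any IL-10- array, so IL-10+ cells were at least 5.48-fold higher, with a fitted difference of 3.13 ± 0.30 log2 (SE) and a limma adjusted p of 0.000151. The other IGH-VS107 probe was undetected on all 10 arrays, so the pair of probes disagree, and the other family 7 name, IGHV7S2, was detected on a single array. Which transcripts the detected probe reads is not settled by the files.

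**Figure D3:**
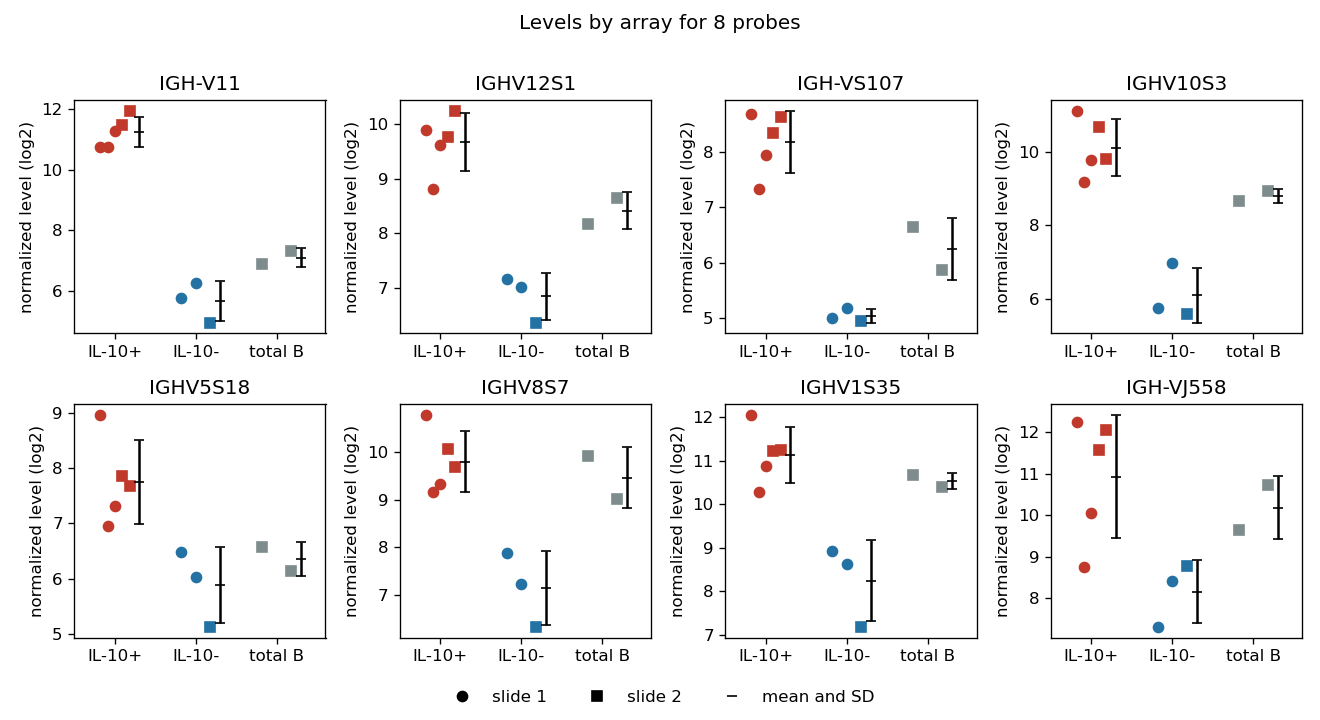
Normalized log2 levels on each array for 8 probes in IL-10+, IL-10- and total B cells (circles on slide 1, squares on slide 2, with the group mean and SD beside them); the vertical axis differs between panels. IGH-V11, IGHV12S1, IGH-VS107 and IGHV10S3 show 3 separate groups with total B cells between the sorted ones, whereas both total B arrays fall within the IL-10+ range for IGHV1S35 and IGH-VJ558, 1 does for IGHV8S7, and 1 falls within the IL-10- range for IGHV5S18.

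Family 10 held the second largest difference. IGHV10S3 had levels of 11.13, 9.19, 9.78, 10.69 and 9.83 in IL-10+ cells, 5.74, 6.96 and 5.58 in IL-10- cells, and 8.66 and 8.95 in total B cells. It was 16.3-fold higher in IL-10+ than in IL-10- cells (4.03 ± 0.43 log2, SE; limma adjusted p = 0.0003). Its relative IGHV10S1 had 7.56, 6.33, 5.74, 7.11 and 6.58 in IL-10+ cells and was undetected on the IL-10- arrays (5.37, 4.64 and 4.69), which makes it at least 1.92-fold higher with a limma adjusted p of 0.00793. IGH-V10, detected on 2 IL-10+ arrays only, differed by 0.96 log2 with a limma adjusted p of 0.0883 and did not pass.

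Both probes of family 8 were detected on all 10 arrays and both were higher in IL-10+ cells. IGHV8S7 had 10.77, 9.15, 9.33, 10.05 and 9.68 in IL-10+ cells, 7.89, 7.24 and 6.34 in IL-10- cells, and 9.92 and 9.004 in total B cells, a 6.23-fold difference between the sorted groups (limma adjusted p = 0.00252). IGHV8S6 differed 5.30-fold. Family 5 had 1 detected probe of 3, IGHV5S18, with 8.96, 6.95, 7.31, 7.86 and 7.68 in IL-10+ cells, 6.49, 6.04 and 5.13 in IL-10- cells, and 6.58 and 6.14 in total B cells. It was 3.64-fold higher in IL-10+ than in IL-10- cells (limma adjusted p = 0.0139, and 0.0768 with the replicate block). IGH-V, of no stated family, was undetected on the IL-10- arrays and at least 1.99-fold higher in IL-10+ cells (limma adjusted p = 0.0121, and 0.0566 with the block).

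Family 1 supplied 23 of the 35 detected probes, and 20 of them were higher in IL-10+ than in IL-10- cells, with a family median of 2.44 log2 and a range of 0.42 to 3.05. IGHV1S35, detected on every array, had 12.05, 10.27, 10.88, 11.22 and 11.25 in IL-10+ cells, 8.93, 8.62 and 7.18 in IL-10- cells, and 10.67 and 10.41 in total B cells, and was 7.42-fold higher in IL-10+ than in IL-10- cells (limma adjusted p = 0.00177). The lowest IL-10+ array lay above the highest IL-10- array, while total B cells lay inside the IL-10+ range. IGHV1S36 and IGHV1S124, with the same order of groups, differed 7.09-fold and 6.98-fold. IGHV1S120 differed 8.23-fold, and its lower total B array (9.95) lay below its lowest IL-10+ array (10.15).

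Other family 1 probes were at or under the detection limit in IL-10- cells. IGHV1S14 had 9.39, 7.13, 8.24, 8.70 and 8.71 in IL-10+ cells against 5.99, 5.54 and 4.63 in IL-10- cells, of which 1 array detected it, and 8.03 and 7.44 in total B cells. With the undetected arrays raised to the lowest detected signal its fold was 6.15, against 8.26 as fitted. IGHV1S129 was detected on all IL-10+ and total B arrays and on no IL-10- array, and was at least 4.05-fold higher in IL-10+ cells (limma adjusted p = 0.000821). Bounds of at least 2.93-fold, 2.45-fold, 1.95-fold, 1.39-fold and 1.23-fold were obtained for IGHV1S133, IGHV1S114, IGHV1S123, IGHV1S12 and IGHV1S121, likewise undetected on every IL-10- array. Among the rest of the called probes of the family, IGHV1S28 was 8.18-fold, IGHV1S31 6.42-fold, IGHV1S34 5.63-fold, IGHV1S119 5.41-fold, IGHV1S30 5.35-fold, IGHV1S59 4.99-fold, IGHV1S135 4.81-fold and IGHV1S52 3.10-fold higher.

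The pair of IGH-VJ558 probes, which carry the old family name and not that of a single gene, varied widely between replicates. Probe 6380762 had 12.24, 8.75, 10.06, 11.56 and 12.04 in IL-10+ cells, 7.32, 8.41 and 8.78 in IL-10- cells, and 9.65 and 10.72 in total B cells. The lowest IL-10+ array, replicate 2, fell just below the highest IL-10- array, and the difference of 2.76 ± 0.73 log2 (SE) had a limma adjusted p of 0.0265. When arrays were left out one at a time, 5 of 10 omissions ended its call, the adjusted p reaching 0.0986 where IL-10- replicate 2 was missing. Probe 240242 showed the same order of arrays (10.03, 6.03, 7.66, 9.16 and 9.81 in IL-10+ cells; 4.69, 6.28 and 6.94 in IL-10- cells), and its difference of 2.57 log2 did not pass (limma adjusted p = 0.0624). Unlike most family 1 probes, both were highest on replicate 5 among the IL-10- arrays.

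The 6 probes that did not pass between IL-10+ and IL-10- cells were IGH-VJ558 probe 240242, IGH-V10, IGHV1S41, IGHV1S20, IGHV9S5 and IGHV14S3. Apart from the first, each was near the detection limit. IGHV9S5, the only probe of family 9, had 5.65, 4.76, 4.90, 5.85 and 5.69 in IL-10+ cells and was undetected in IL-10- cells (4.55, 4.55 and 4.81), with a difference of 0.73 ± 0.25 log2 (SE) and a limma adjusted p of 0.0687, which became 0.0255 without IL-10+ replicate 2 and 0.0461 without replicate 3. IGHV14S3, the only probe of family 14, had 5.78, 5.48, 5.59, 5.71 and 6.90 in IL-10+ cells, 5.74, 5.85 and 4.75 in IL-10- cells, and 5.79 and 5.52 in total B cells (difference 0.44 ± 0.34 log2, SE; limma adjusted p = 0.393).

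**Figure D4:**
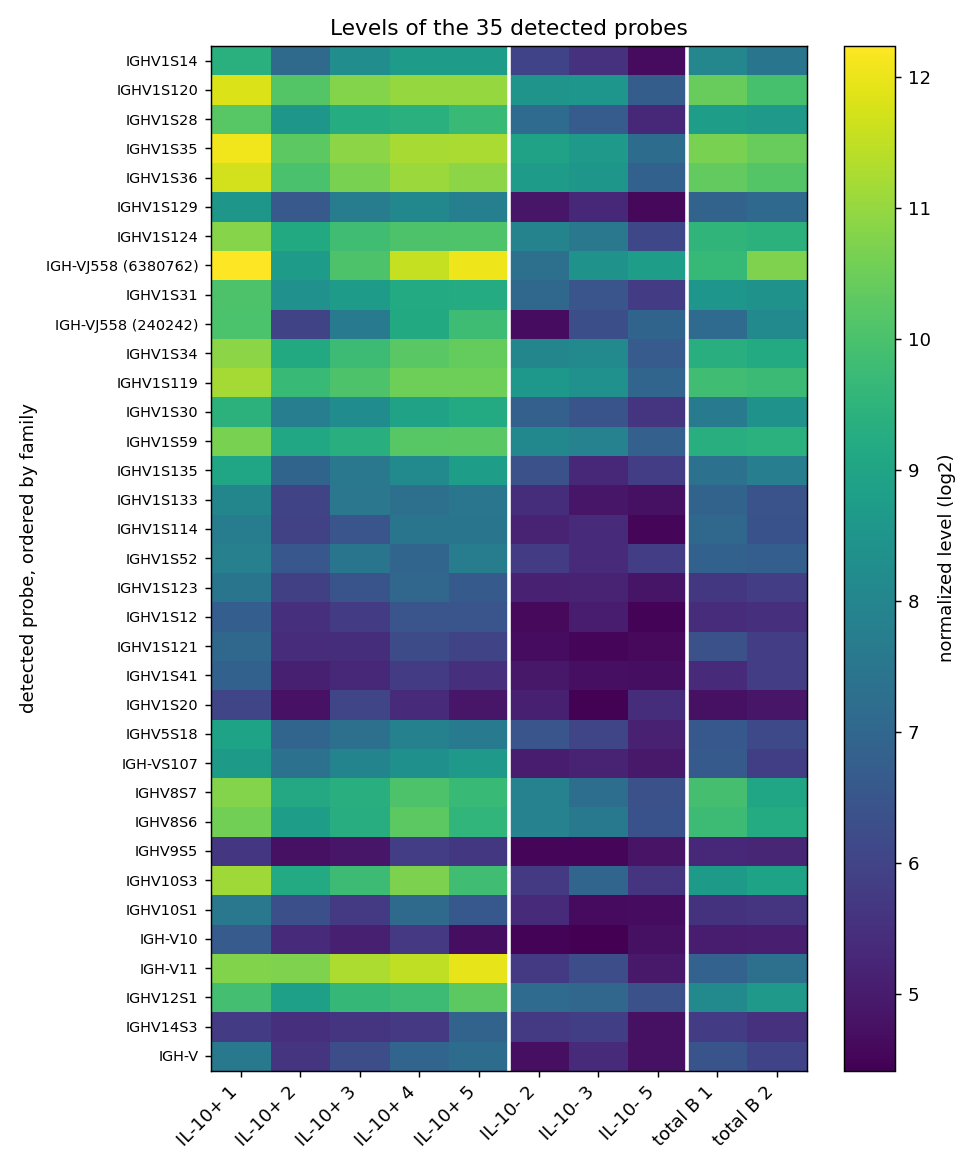
Normalized log2 level (colour) of the 35 detected probes (rows, by family) on the 10 arrays (columns), with white lines between IL-10+, IL-10- and total B cells. Most rows are brightest on IL-10+ replicate 1 and darkest on the IL-10- arrays, whereas IGH-V11 is brightest on IL-10+ replicate 5 and dark in total B cells.

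IL-10+ cells were next set against total B cells. Here 3 of the 35 probes were higher and none was lower, or 8.57% called higher against 10.8% of all detected probes, a share near the background. Over all detected probes 9.83% were lower. An unadjusted p below 0.05 was found for 8 of the 35, and for 5690 of all 16496 detected probes. The 3 probes were IGH-V11 of family 11, IGH-VS107 of family 7 and IGHV12S1 of family 12. IGH-V11 was 17.7-fold higher in IL-10+ cells (4.15 ± 0.38 log2, SE, n = 5 and 2; limma adjusted p = 0.000101). IGH-VS107 was higher by 1.93 ± 0.34 log2 (SE; limma adjusted p = 0.00317) and IGHV12S1 by 1.26 ± 0.34 (SE; limma adjusted p = 0.0251). For all 3, every IL-10+ array lay above both total B arrays, which held for 7 of the 35 probes and for 20.6% of all detected probes.

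None of the 23 family 1 probes passed against total B cells. Their differences ran from -0.08 to 0.93 log2 with a median of 0.63, and those of IGHV8S7 and IGHV8S6 were 0.33 and 0.18. In simulated data with the spread of the detected probes, this comparison recovered 4% of changes of 0.5 log2. For changes of 1 log2 the share was 40%, so a missing call does not show equal levels. IGHV10S3 and IGHV5S18 reached 1.32 and 1.39 log2 with limma adjusted p of 0.084 and 0.0635. Whether IGH-V11, IGH-VS107 and IGHV12S1 differ from family 1 in this respect was not tested.

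This count rested on few arrays. Both total B arrays were on slide 2, and within that slide, with 2 arrays a group, 22 of the 35 probes were higher in IL-10+ cells (9.52% of all detected probes), including 15 of 23 in family 1, with differences above 0 for all 35 and a median of 0.84 log2. Within slide 2 the differences were 4.62 log2 for IGH-V11, 2.23 for IGH-VS107 and 1.60 for IGHV12S1. Without IL-10+ replicate 2, 9 probes were called, the 3 above with IGHV10S3, IGHV5S18, IGHV1S12, IGHV1S123, IGHV1S129 and IGHV1S133 (10.3% of all detected probes). Without IL-10+ replicate 1, 2 were called (8.78%), and the median difference of the 35 was 0.42 log2. Without total B replicate 2 only IGH-V11 was called (5.24% of all detected probes), with an adjusted p of 0.0518 for IGH-VS107, and without total B replicate 1 IGH-V11 and IGH-VS107 (4.6%). IGHV12S1 also lost its call without IL-10+ replicate 1 (adjusted p = 0.0501) and with the replicate number as a block (adjusted p = 0.146), where 4 of the 35 were called higher (8.12% of all detected probes). IL-10+ and total B arrays of one number are not taken as pairs, so this block may not match the design.

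IL-10- cells fell below total B cells for 19 of the 35 probes and exceeded them for none, or 54.3% against 6.35% of all detected probes called lower and 6.87% called higher. With no filter, 10 of all 61 members were called lower, against 1.82% of the table. The median difference was -1.68 log2, and every IL-10- array lay below both total B arrays for 32 probes, against 21.5% of all detected probes. IGHV10S3 fell most, by 2.71 ± 0.54 log2 (SE, n = 3 and 2; limma adjusted p = 0.0109). In family 1, 14 of 23 probes were lower in IL-10- cells, such as IGHV1S35 at 4.90-fold, IGHV1S28 at 4.94-fold and IGHV1S120 at 4.85-fold lower, and IGHV1S129, undetected in IL-10- cells, was at least 2.44-fold lower. Both family 8 probes were lower, by 4.94-fold for IGHV8S7 and 4.67-fold for IGHV8S6. IGH-V11 and IGHV12S1 were 2.72-fold and 2.97-fold lower, and IGH-VS107 did not pass (limma adjusted p = 0.0559). The limma adjusted p of IGH-V11 was 0.0444, and it became 0.0946 with the slide as a block and 0.0898 with no filter. Raising its undetected IL-10- array to the lowest detected signal gave a fold of 2.24. IGHV12S1 had a limma adjusted p of 0.0222, and 0.0505 with the slide as a block.

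All 19 probes lower in IL-10- than in total B cells were also among the 29 higher in IL-10+ than in IL-10- cells, but these comparisons share the IL-10- arrays. With the replicate number as a block, in a fit of all 10 arrays, limma called none of the 35 lower (2.84% of all detected probes), although 18 had an unadjusted p below 0.05 (4361 of all 16496 detected probes). The 19 probes then had differences of -2.43 to -0.94 log2 and limma adjusted p of 0.054 to 0.234. This block also ties IL-10+ to total B arrays of one number. Those are not taken as pairs, since their deviations correlated at -0.098 and -0.028. Within slide 2 limma called 24 probes lower (8.13%), with an IL-10- arm of 1 array whose spread was again taken from the other groups. Without total B replicate 1 limma called none (1.27% of all detected probes; 21 of the 35 had an unadjusted p below 0.05), and without total B replicate 2 only IGHV8S7 (1.69%). With replicate 2 of the IL-10+ cells left out, which changes only the shared spread, 24 were called lower (5.63%). With replicate 1 left out, 23 were (6.33%). The mean of total B cells lay between those of the sorted groups for 33 of the 35 probes, and both total B arrays lay between all arrays of the sorted groups for 6 probes, IGH-V11, IGHV10S3, IGH-VS107, IGHV12S1, IGHV10S1 and IGHV1S123. The share of all detected probes in either order was not counted, so these counts have no background.

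The heavy chain variable probes varied between replicates of IL-10+ cells far more than most probes did. The median SD over the 5 IL-10+ arrays was 0.65 log2 for the 35 probes against 0.22 for all detected probes, and each of the 35 lay above 0.41, the 90th percentile of all probes. In IL-10- cells the medians were 0.62 and 0.27 log2, and in total B cells 0.20 and 0.17. The variation was shared. Of 35 probes, 31 were highest on IL-10+ replicate 1 and 33 were lowest on IL-10+ replicate 2. Among all 16496 detected probes, 3676 were highest on replicate 1 and 3554 lowest on replicate 2. The median level of the 35 probes was 9.39, 7.13, 7.93, 8.70 and 8.76 log2 on IL-10+ arrays 1 to 5, 5.80, 6.04 and 5.43 on IL-10- arrays 2, 3 and 5, and 7.16 and 7.44 in total B cells.

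**Figure D5:**
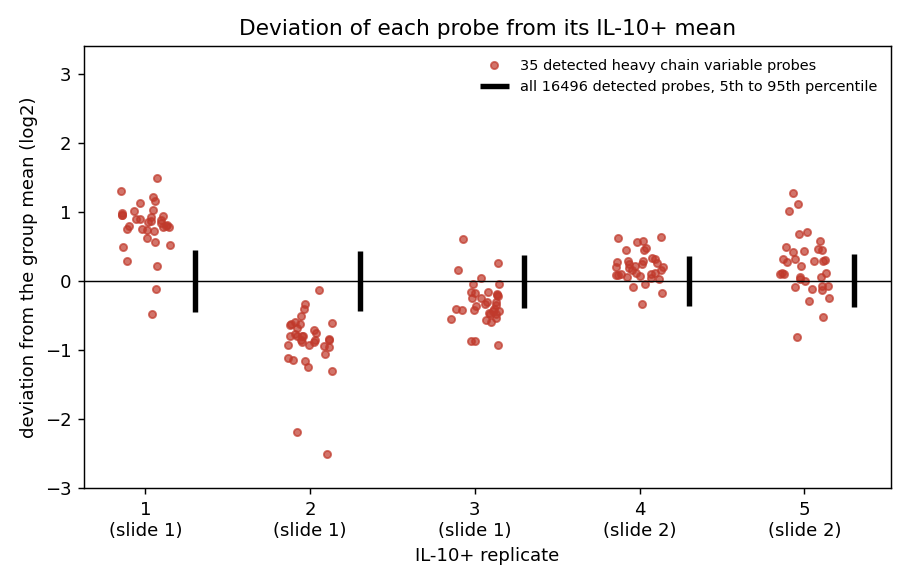
Deviation of each of the 35 detected heavy chain variable probes from its mean over the 5 IL-10+ arrays (points, log2), by replicate and slide, with the 5th to 95th percentile of all detected probes as a black bar. The median deviation is 0.84 on replicate 1 and -0.84 on replicate 2, and all 35 points lie below 0 on replicate 2.

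IL-10+ replicates 1 and 2 lay on the same slide, and the detected share of all probes was 34.5% and 33.1% on them. IGH-V11 departed from the shared order, with nearly equal levels on replicates 1 and 2 (10.76 and 10.74) and its highest on replicate 5 (11.95). Light chain variable probes were mostly lowest on the same array. Of 29 such probes 25 were detected, 18 were higher in IL-10+ than in IL-10- cells and none was lower, with a median of 2.03 log2, and 24 of the 25 were lowest on IL-10+ replicate 2. Their highest array was less uniform, with 13 highest on IL-10+ replicate 1 and 11 on replicate 5.

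Constant region and J chain probes were also mostly higher in IL-10+ cells. IGH-6, the mu constant region of IgM, was higher in IL-10+ than in IL-10- cells by 1.08 ± 0.18 and 1.06 ± 0.17 log2 (SE) on its pair of probes, and IGK-C, the kappa constant region, by 0.81 ± 0.14. IGHG, the gamma constant region, was higher by 2.06 ± 0.62 and 2.78 ± 0.40 log2 (SE), and IGJ, the J chain that joins IgM and IgA units, by 2.48 ± 0.54. Of 7 detected constant region and J chain probes 6 were higher in IL-10+ cells and none was lower; IGLC2, of a lambda constant region, differed by 0.21 log2 and did not pass, and the IGHA probe was undetected. The highest signals of IGH-6 and IGK-C came to 87.7% and 94.5% of the brightest signal in the table. The brighter IGH-6 probe read 53830.2, 29487.2, 36650.3, 54001.0 and 53721.9 in IL-10+ cells, 11529.6, 13519.1 and 24077.2 in IL-10- cells, and 31783.7 and 17882.5 in total B cells, so 3 IL-10+ arrays stood at nearly one value close to the top of the scale.

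Levels were also taken relative to this IGH-6 probe on the same array, a scaling added with the data in view. It lowers the difference of every probe by the same 1.06 log2, which puts the median of all detected probes at -1.08. On it 27 of the 35 heavy chain variable probes were called higher in IL-10+ than in IL-10- cells, against 1.51% of all detected probes, with a median of 1.36 log2. With this shift 85.4% of all detected probes were called lower, so the 1.51% cannot be compared with the backgrounds given above. If the IGH-6 signal is compressed near the top of the scale, differences on this scale are too large, and this was not tested.

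Other markers moved with the heavy chain variable probes, and their part in the result was not tested. The marker lists here and below were chosen with earlier results of these data known, so their counts are not independent of the data. Of all detected probes, 8.72% were called higher and 7.98% lower in IL-10+ than in IL-10- cells. B-1 cells are an innate-like B cell lineage, and of 15 detected probes of a list of B-1 associated genes 13 were higher in IL-10+ than in IL-10- cells and none was lower. Nt5e, the ectoenzyme CD73, was higher by 3.15 log2, the calcium-binding S100a6 by 3.08 and the inhibitory receptor Ctla4 by 2.66. The summed raw intensity of this list was 27608 to 44349 in IL-10+ cells, 5753 to 9758 in IL-10- cells and 5485 to 8015 in total B cells. Itgam and BHLHB3 (Bhlhe41) were among its undetected genes. Against total B cells 14 of these probes were higher in IL-10+ cells, and 5 were higher and 1 lower in IL-10- cells. The matching shares of all detected probes were 10.8%, 6.87% and 6.35%.

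Plasmablast genes, which serve antibody secretion, were higher for 5 of 8 detected probes and lower for none. Mzb1 (2010001M09RIK in the file), a chaperone of the endoplasmic reticulum, was higher by 1.95 log2, the transcription factor Xbp1 by 0.87, and Prdm1, the regulator of plasma cell differentiation, at least 2.02-fold, while Sdc1 and Tnfrsf17 were undetected. The summed list ran from 22318 to 34510 in IL-10+ cells, 12432 to 25981 in IL-10- cells and 14392 to 24022 in total B cells. Genes of the B cell receptor complex and its signalling went the other way, with 9 of 15 detected probes lower and 1 higher in IL-10+ cells. Fcer2a, the low-affinity IgE receptor CD23, fell by 2.54, 1.54 and 1.47 log2 on its 3 probes and Cd22, an inhibitory co-receptor, by 1.47 and 1.28 on its pair of detected probes, while Plcg2, a signalling phospholipase, rose by 0.44.

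None of 6 probes for V(D)J recombination and surrogate light chain genes (Rag1, Rag2, Dntt, Vpreb1, Vpreb2 and IGL-5) was detected on 2 arrays. Among B cell markers 9 of 9 probes were detected, 3 of them lower in IL-10+ than in IL-10- cells. Of 12 T cell probes 3 were detected, with Cd8b1 and Cd3g higher in IL-10+ than in IL-10- cells and the remaining detected probe not called. The summed T cell list was 2458 to 3448 in IL-10+ cells, 1766 to 2808 in IL-10- cells and 2038 to 2345 in total B cells. No NK cell or neutrophil probe was detected. Macrophage markers were detected for 4 of 12 probes (2 higher in IL-10+ cells), dendritic cell markers for 2 of 9 (1 lower), basophil markers for 1 of 7 (none called), and erythroid markers for 9 of 15, all of them HBB-B1 and 8 of them lower. Against total B cells all 9 HBB-B1 probes were lower in IL-10+ cells, with a median of -2.07 log2, and none was called in IL-10- cells (median -0.85). The summed erythroid list was 2756 to 5867 in IL-10+ cells, 2919 to 6324 in IL-10- cells and 7509 to 9235 in total B cells, and the part of these cells in the comparisons with total B cells was not tested.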

How the data were processed

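RNA of 10 samples was hybridized as biotinylated cRNA to Illumina arrays, 1 sample each. The authors' deposited table holds each probe's mean bead intensity on a linear scale, together with bead SD and bead number; GenomeStudio 1.9.0 wrote it with normalization set to none, per the file headers. The deposited detection score is high for bright probes. The sources used here do not say whether background was subtracted. A second deposited table of processed values was not used, because its IDs carry no pairing to probe names here.

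Background correction and quantile normalization used neqc of limma 3.58.1 in R 4.3.3 (offset 16, with 1 minus the score as detection p). Quantile normalization gives all arrays one distribution, so levels are relative to the other probes of an array. Probes detected on at least 2 arrays (16496 of 45281) entered a single lmFit and eBayes fit of 3 group means over 10 arrays (7 residual degrees of freedom), with two-sided tests, p-values adjusted by Benjamini-Hochberg across these probes, and a threshold of 0.05. The fit was tested on simulated data. The members and lists were chosen with earlier results of these data known. A probe undetected on every array of a group is given a lower bound on its fold: the mean of the brighter group over that of the dimmer, each dim array entered at its lowest signal of a detected probe or at the probe's own, whichever is higher. Where this fell below 1-fold no bound is given, and the fitted difference is kept.

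The rule for named genes took Il10, every member called in a comparison (or, with more than 24 calls, the 12 largest rises and 12 largest falls), for each family with no call the probe with the smallest p, and up to 3 called genes per context list; it named 23 members. All other members named, 8 called ones among them, and a few context genes were chosen after their values were seen. Family numbers are those in the names; IGH-VJ558 was placed in family 1 and IGH-VS107 in family 7.

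For IL-10+ and IL-10- arrays of one number, deviations from the group means correlated across probes at 0.352, 0.230 and 0.328 (replicates 2, 3 and 5), so the titles' numbers were taken to pair them; each pair also lies on 1 slide, and the value was 0.283 for replicate 4 of IL-10+ with replicate 5 of IL-10- cells, on 1 slide under different numbers. Alternatives covered background correction, scaling, filter, probe choice, slide, replicate block and the omission of each array, and, chosen after seeing the data, levels relative to IGH-6 and undetected arrays raised to the lowest detected signal. Probe sequences and coordinates were not analysed here.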

Additional observations from a re-analysis of the deposited data

Results flagged for a closer look

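IGHV14S3, the only family 14 probe, had one IL-10+ array far from the others: replicate 5 stood at 6.90 log2 against 5.48 to 5.78 on the other 4 arrays, a gap of 1.12 in a range of 1.42, or 0.791 of the range, above Dixon's critical value of 0.71 for 5 samples. Of 35 probes tested for such a gap in IL-10+ cells this was the single case, and chance flags about 1 in 20 groups.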

How the results depend on the processing

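The count of heavy chain variable probes higher in IL-10+ than in IL-10- cells (29) was 27 to 33 under other background correction, scaling, filter, probe choice and the slide as a block, was 21 with the replicate block and 11 within slide 1, and ranged from 28 to 31 with single arrays left out; none was lower in any setting. The 3 probes higher in IL-10+ than in total B cells became 7 with median scaling and 22 within slide 2, and 1 to 9 with single arrays left out. The 19 probes lower in IL-10- than in total B cells became 12 without background correction, 12 with median scaling on probes detected everywhere, 10 without a filter, 12 with the slide as a block, 0 with the replicate block, and 0 to 24 with single arrays left out. Beside these counts, 2.61% (no filter) to 25.1% (median scaling) of all probes tested were called higher between the sorted groups. Median scaling called 8.69% higher in IL-10+ than in total B cells. Lower in IL-10- than in total B cells were 6.90%, 3.19%, 1.82%, 6.25% and 2.84%, from no background correction to the replicate block. Members tested were 61 without a filter, 30 with detection on at least 5 arrays, 34 with 1 probe per gene and 35 otherwise. Over all probes the calls were 2755, 3405 and 2182 in these comparisons. They became 4244, 1891 and 1170 with median scaling over all probes, which puts the median of all probes at 0.49 log2 between IL-10+ and IL-10- cells and splits the calls into 4138 higher and 106 lower, against 1439 and 1316; against total B cells the split became 1433 and 458 in IL-10+ cells (1783 and 1622 before) and 161 and 1009 in IL-10- cells (1134 and 1048 before). Scaling on probes detected everywhere put that median at -0.11, with 1000 higher and 1544 lower between the sorted groups. The count of all calls between the sorted groups was 1578 with the replicate block (1103 between IL-10- and total B cells), 942 within slide 1 and 1113 within slide 2, and single omissions gave 1729 to 2684, 1318 to 3973 and 537 to 2222. Neither IGHV14S3 nor IGHV9S5 passed as reported. Relative to IGH-6 they stood at -0.62 and -0.33, a sign set by that scaling, which lowers every difference by 1.06 log2. IGHV14S3 also turned to -0.18 within slide 1, for which the cause was not tested, and IGHV9S5 to -0.0766 with undetected arrays raised, which lifts all 3 of its IL-10- levels and 2 of its IL-10+ levels. IGHV9S5 passed in 5 settings, namely median scaling over all probes, the slide as a block, within slide 2 (an IL-10- arm of 1 array), and without IL-10+ replicate 2 or 3. Replicate numbers shared by IL-10+ and total B arrays correlated at -0.098 and -0.028, so these are not taken as pairs, and the block there gave 4 calls; IL-10- and total B arrays share 1 number, and their blocked contrast runs through the IL-10+ arrays. The authors' processed values were not run. Signal over background limits all 26 undetected probes.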
